A study of Homo sapiens with 8 samples.

Results

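The genes described here encode the machinery of nonsense-mediated decay and of general mRNA turnover, and they were chosen by name. There were 37 of them, among 21608 genes with at least 1 read over an annotated splice junction. By role, 4 were UPF factors, 3 belonged to the SMG1 kinase complex and 2 were SMG5 and SMG6. A further 5 belonged to the exon junction complex, 7 to the decapping machinery and 8 to the deadenylases. The last groups were 6 subunits of the RNA exosome and 2 of its nuclear cofactors. All 37 had spliced reads and passed the filter on low counts, which kept 13487 genes in all.

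The cells were HEK293, an established line of human embryonic kidney origin. One group had been treated with 25 nM LMI070 (branaplam), a small molecule that alters splicing, and the other with DMSO, its solvent. Each group had 4 libraries of total RNA depleted of ribosomal RNA, replicates 9, 10, 11 and 12 for DMSO and replicates 13, 14, 15 and 16 for LMI070, and the labels name no other agent, transgene or treatment time. Lane 8 of the sequencer held DMSO 9 and 10 with LMI070 14 and 15, and lane 7 held DMSO 11 and 12 with LMI070 13 and 16. Run codes in the labels differ between the lanes, so lane and run cannot be told apart. The labels do not tell whether cultures were separate, and a p value here refers to the variation among these 8 libraries, which may be technical.

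Nonsense-mediated decay removes mRNAs that carry a premature stop codon. UPF1, a helicase, is phosphorylated by the kinase SMG1 and recruits SMG5 and SMG6, while an exon junction complex left downstream of the stop codon marks the message as faulty. The RNA is then cut, decapped, shortened from its poly(A) tail and degraded from both ends, the 3′ end by the exosome. LMI070 is known to strengthen the pairing of U1 snRNP with certain 5′ splice sites, mostly of exons whose last bases are GA, and an exon gained in this way often brings a premature stop codon.

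The libraries held 20369466 to 36131054 uniquely mapped junction reads. DMSO 12 and LMI070 16 lay apart from the rest in a multidimensional scaling plot of all genes. Of 9 genes typical of HEK293 and embryonic kidney, 8 were detected and tested, and their summed level was 1020 to 1080 CPM (spliced reads scaled by library size) in DMSO and 1030 to 1070 CPM in LMI070. The other one, SOX11, has no intron and so no spliced reads. VIM and KRT18 gave most of the summed level, with means of 761 and 222 CPM in DMSO. The means of PAX2, LHX1 and EYA1 in DMSO were 0.614, 2.71 and 12.8 CPM. Markers of blood cells summed to 0.207 to 0.527 CPM in DMSO and 0.364 to 0.929 CPM in LMI070, with HBB at 0. Markers of hepatocytes summed to at most 0.208 CPM in any library, with SERPINA1, FGB and APOB at 0. Fibroblast markers summed to 21.6 to 26.6 CPM in DMSO and 24.9 to 33.7 CPM in LMI070. COL1A1 gave most of that sum, with 18.3 to 22.9 CPM in DMSO and 21.3 to 31.7 CPM in LMI070, and its part in the results was not tested.

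The amount of spliced RNA of these genes was compared first. No decay gene passed the test: the quasi-likelihood F test of edgeR called 0 of 37 at an adjusted p under 0.05, and DESeq2 also called 0. Over all 13487 genes 18 were called, which is 0.133% of them, with 3 higher in LMI070 (0.0222%) and 15 lower (0.111%). At an unadjusted p under 0.05 edgeR gave 4 decay genes and DESeq2 gave 3. The 4 were CNOT6, SMG6 and DCP1A on the higher side and MTREX on the lower, 10.8% of the set beside 9.84% of all genes. In 0 of 37 genes were the 4 LMI070 libraries entirely above or below the 4 DMSO libraries, beside 4.13% of all genes. The median log2 fold change was 0.007, against 0.004 over all genes, and the median absolute change was 0.044, against 0.072.

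These differences were also small in absolute terms. Ratios of LMI070 to DMSO ranged from 0.932 for LSM1 to 1.23 for CNOT3. For 33 of the 37 genes the interval of 2 standard errors each way lay between a ratio of 0.8 and 1.2. The other 4 were DCP1A, EDC3, CNOT3 and CNOT6, whose intervals reached 1.26, 1.44, 1.5 and 1.26. In bulk RNA, fewer cells expressing a gene and less RNA per cell cannot be told apart.

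**Figure D1:**
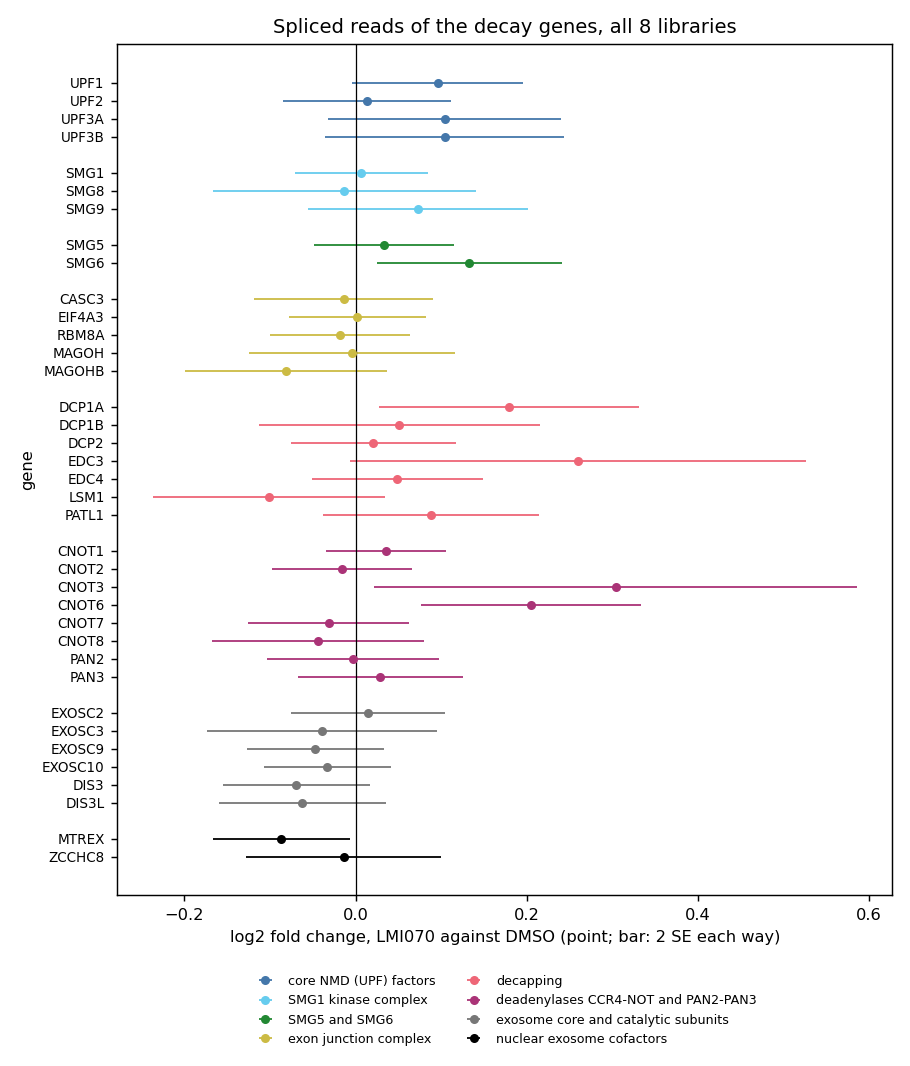
Log2 fold change of spliced reads in LMI070 against DMSO for the 37 decay genes (x axis), grouped by role (y axis); points are the edgeR estimates over 8 libraries and bars 2 standard errors each way. Most intervals cross 0, and the estimates run from -0.10 (LSM1) to 0.30 (CNOT3), the latter with one of the widest bars.

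The genes covered a wide range of levels. Spliced reads grow with the number of introns, so genes were set side by side only per intron, as CPM summed over the introns of the gene's most read transcript and divided by their number. EIF4A3, the helicase that anchors the exon junction complex, had the highest level, 32.1 ± 0.787 CPM per intron in DMSO (SD, n = 4), and RBM8A, its partner, followed at 29.2 ± 1.17. The lowest were DCP1B, a decapping cofactor, at 2.03 ± 0.164 and PATL1, a scaffold of decapping, at 2.23 ± 0.0587. The highest level was 15.8 times the lowest, and the median gene stood at 5.94.

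Neighbours in that order mostly lay within each other's spread, such as DCP2 at 16.1 ± 0.78, CNOT1 at 15.9 ± 0.866 and MTREX at 15.6 ± 0.986 CPM per intron. The exosome cofactor MTREX and the nucleases DIS3 (19.6 ± 1.01) and EXOSC10 (13.2 ± 0.238) lay in the upper part of the order, and the endonuclease SMG6 (2.70 ± 0.22) near its end. In LMI070 the levels were close to these, with EIF4A3 at 32.0 ± 1.54 and DCP1B at 2.09 ± 0.189 CPM per intron.

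**Figure D2:**
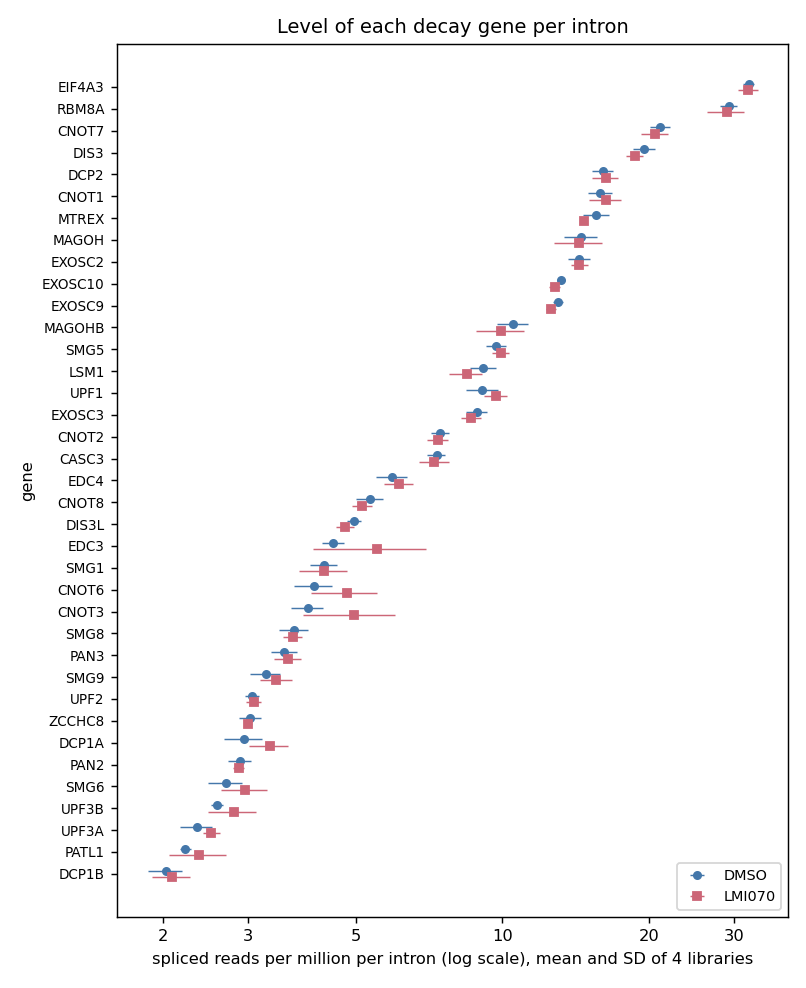
CPM of spliced reads per intron (x axis, log scale) of each of the 37 decay genes (y axis), as mean and SD of the 4 libraries of each group, ordered by the DMSO mean. EIF4A3 and RBM8A are at the top (32.1 and 29.2 in DMSO), DCP1B and PATL1 at the bottom, and on this log scale the widest LMI070 bars are those of EDC3, CNOT6 and CNOT3.

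The core factors came first. UPF1, the ATP-dependent helicase at the centre of the pathway (chr19:18831938-18868236, + strand, GRCh38), stood at 231, 225, 234 and 199 CPM in DMSO replicates 9, 10, 11 and 12. In LMI070 replicates 13, 14, 15 and 16 it stood at 241, 230, 227 and 253 CPM. The groups overlapped, and DMSO 12 was the lowest library (log2 fold change 0.096, SE 0.050, edgeR adjusted p = 0.532). UPF2, the bridge between UPF1 and UPF3, stood at 68.3 ± 2.34 CPM in DMSO and 68.8 ± 2.22 CPM in LMI070 (SD, n = 4 each).

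UPF3A and UPF3B are paralogues that link UPF2 to the exon junction complex. UPF3A stood at 25.0, 26.3, 22.4 and 23.0 CPM in DMSO and 27.1, 25.4, 26.9 and 24.3 CPM in LMI070, in replicate order. UPF3B stood at 26.6, 26.0, 25.2 and 27.2 CPM in DMSO and 31.0, 26.7, 24.6 and 30.5 CPM in LMI070. Both pairs of groups overlapped, and both genes had a log2 fold change of 0.104 (SE 0.068 and 0.070, edgeR adjusted p = 0.612 and 0.623). Per intron, UPF3A was at 0.907 of UPF3B in DMSO and at 0.90 in LMI070.

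SMG1, the kinase of UPF1, stood at 283 ± 18.2 CPM in DMSO and 285 ± 31.0 CPM in LMI070. Of its junction reads 12.04% mapped to more than 1 place, the highest share in the set, beside a median of 0.194%. SMG1 has pseudogene copies, and whether these reads came from SMG1 or from a copy was not tested. SMG8 and SMG9, which restrain the kinase, had log2 fold changes of -0.013 and 0.073, and SMG8 had the fewest reads of the set, 293 in its lowest library. SMG5, an adaptor that brings in decapping and deadenylation, stood at 215 ± 9.95 and 220 ± 7.83 CPM.

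SMG6 is the endonuclease that cuts the target near its stop codon. It stood at 49.7, 46.4, 56.1 and 52.3 CPM in DMSO and at 59.8, 53.4, 49.0 and 62.2 CPM in LMI070. The groups overlapped, with LMI070 13 and 16 the highest libraries (log2 fold change 0.133, SE 0.054, edgeR adjusted p = 0.428).

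The 5 exon junction complex genes had log2 fold changes from -0.081 (MAGOHB) to 0.002 (EIF4A3), and none passed the test. EIF4A3 stood at 371 ± 9.64 CPM in DMSO and 372 ± 18.7 CPM in LMI070. MAGOH and MAGOHB encode nearly the same core protein, and MAGOH stood at 66.2, 68.0, 57.4 and 69.2 CPM in DMSO and 60.6, 72.8, 70.2 and 57.2 CPM in LMI070. MAGOHB stood at 48.5, 49.97, 42.4 and 47.3 CPM in DMSO and 40.8, 45.0, 51.3 and 41.3 CPM in LMI070. The groups of both genes overlapped, and per intron MAGOH was at 1.38 times MAGOHB in DMSO and 1.45 times in LMI070. CASC3, the peripheral subunit of the complex, stood at 100 ± 4.22 and 99.4 ± 6.70 CPM, with a log2 fold change of -0.014 (SE 0.052, edgeR adjusted p = 0.947).

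Of the 7 decapping genes 6 had an estimate above 0, beside 51.4% of all genes, and none passed. Within lane 8 EDC3 (-0.122) and PATL1 (-0.067) were below 0 as well as LSM1 (-0.030). DCP1A, a cofactor of the decapping enzyme, stood at 29.4, 28.4, 30.1 and 24.6 CPM in DMSO and at 32.2, 28.5, 31.5 and 35.6 CPM in LMI070. LMI070 14 lay within the DMSO range and the other 3 above it (log2 fold change 0.179, SE 0.076, edgeR adjusted p = 0.453). Its paralogue DCP1B stood at 15.7, 18.9, 17.5 and 17.3 CPM in DMSO and 18.6, 19.5, 15.8 and 17.9 CPM in LMI070, which overlapped. DCP2, the decapping enzyme itself, stood at 172 ± 8.75 and 174 ± 10.7 CPM, and EDC4, its scaffold, at 175 ± 12.3 and 181 ± 12.3 CPM. LSM1, a subunit of the ring that binds shortened tails, had the lowest estimate of the set (log2 fold change -0.101, SE 0.068, edgeR adjusted p = 0.623).

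EDC3, an enhancer of decapping (chr15:74630558-74696292, - strand), behaved differently in the 2 lanes. It stood at 32.9, 31.7, 28.8 and 32.4 CPM in DMSO and at 46.5, 28.96, 30.4 and 47.3 CPM in LMI070. LMI070 13 and 16, the lane 7 libraries, were far above all others, while LMI070 14 and 15 lay below both DMSO libraries of lane 8. Over both lanes the log2 fold change was 0.260 (SE 0.133, edgeR adjusted p = 0.545).

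Among the deadenylases, CNOT3 had the same pattern. CNOT3 is a non-catalytic subunit of CCR4-NOT (chr19:54137717-54155708, + strand), the main complex that shortens poly(A) tails. It stood at 78.1, 76.8, 71.7 and 65.6 CPM in DMSO and at 106, 74.8, 74.8 and 109 CPM in LMI070, with LMI070 13 and 16 again above every other library. Over both lanes its log2 fold change was 0.304 (SE 0.141, edgeR adjusted p = 0.533). CNOT6, a catalytic subunit (chr5:180494412-180578405, + strand), had the smallest p of the set. It stood at 45.0, 48.7, 47.9 and 55.5 CPM in DMSO and at 63.2, 52.2, 47.2 and 65.6 CPM in LMI070, and LMI070 15 lay within the DMSO range (log2 fold change 0.205, SE 0.064, edgeR adjusted p = 0.322).

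The other deadenylase genes had log2 fold changes between -0.044 (CNOT8) and 0.036 (CNOT1). CNOT1, the scaffold of the complex, had the most reads of the set, up to 29866 in a library, and stood at 817 ± 45.1 CPM in DMSO and 839 ± 60.8 CPM in LMI070. The catalytic paralogue CNOT7 stood at 136, 135, 125 and 140 CPM in DMSO and 124, 133, 143 and 125 CPM in LMI070. CNOT8 stood at 40.8, 39.3, 41.2 and 45.1 CPM in DMSO and 37.6, 42.1, 42.0 and 39.9 CPM in LMI070. Both pairs of groups overlapped, and per intron CNOT7 was at 3.95 times CNOT8 in DMSO and 4.00 times in LMI070. PAN2 and PAN3, the subunits of the enzyme that starts tail shortening, had log2 fold changes of -0.003 and 0.029.

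Of the 6 exosome genes 5 had an estimate below 0, from -0.069 (DIS3) to 0.015 (EXOSC2), and none passed. Over all genes 51.4% of estimates were above 0. Within lane 8 DIS3, DIS3L, EXOSC3 and EXOSC10 were above 0 (0.014, 0.009, 0.083 and 0.003), and EXOSC9 stayed below (-0.018). DIS3, the catalytic subunit of the nuclear exosome, stood at 408, 409, 399 and 450 CPM in DMSO and 384, 412, 413 and 380 CPM in LMI070. DIS3L, its cytoplasmic counterpart, stood at 84.7, 82.2, 84.9 and 89.0 CPM in DMSO and 81.6, 82.4, 85.6 and 76.7 CPM in LMI070. The groups of both genes overlapped (edgeR adjusted p = 0.591 and 0.681), and per intron DIS3 was at 3.95 times DIS3L in DMSO and 3.94 times in LMI070. The cap subunits EXOSC2 and EXOSC3, the ring subunit EXOSC9 and the nuclease EXOSC10 had log2 fold changes of 0.015, -0.039, -0.047 and -0.033.

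MTREX, the helicase that feeds RNA to the nuclear exosome, stood at 408, 410, 429 and 467 CPM in DMSO and at 400, 411, 398 and 402 CPM in LMI070. DMSO 11 and 12, both of lane 7, were the highest libraries, and the groups overlapped (log2 fold change -0.087, SE 0.040, edgeR adjusted p = 0.496). ZCCHC8, its partner in the NEXT complex, stood at 41.8 ± 2.05 and 41.4 ± 0.849 CPM.

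Whether the difference between LMI070 and DMSO was the same in both lanes was then tested as an interaction of treatment and lane. CNOT3 and EDC3 passed, at -0.698 (SE 0.087, edgeR adjusted p = 1.02e-05) and -0.739 (SE 0.116, edgeR adjusted p = 2.38e-04), as the log2 fold change in lane 8 minus that in lane 7. The test called 407 of 13487 genes, or 3.02%, of which 348 (2.58%) had the smaller value in lane 8. Within lane 7, CNOT3 rose by 0.651 (ratio 1.57, edgeR adjusted p = 2.72e-06), EDC3 by 0.619 (ratio 1.54, edgeR adjusted p = 1.17e-04) and CNOT6 by 0.320 (ratio 1.25, edgeR adjusted p = 0.0302) on the log2 scale. In that lane 577 of 13512 genes passed, or 4.27%.

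Within lane 8 the estimates were -0.049 for CNOT3, -0.122 for EDC3 and 0.087 for CNOT6. None of the 37 passed there, beside 0.368% of all genes. At an unadjusted p under 0.05 in edgeR there were 2 within lane 8, CASC3 at -0.143 and EIF4A3 at 0.064, and 10 within lane 7. The share of all genes at that unadjusted cut within a lane was not counted. CNOT6 was not among the genes with an interaction (-0.231, SE 0.110, edgeR adjusted p = 0.322), so its values in the lanes were not shown to differ. With only 2 libraries of a group in a lane, the lane and these particular LMI070 libraries cannot be told apart.

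The interactions of CNOT3 and EDC3 were also found after leaving out any 1 of the 8 libraries and with DESeq2, from -0.763 to -0.636 for CNOT3 and from -0.822 to -0.656 for EDC3. Without DMSO 11, 11 decay genes and 1635 genes in all had an interaction. Base composition moved with the lane difference. Within lane 7 the median log2 fold change was -0.075 in the fifth of genes with the lowest GC content (median 40.7%) and 0.10 in the fifth with the highest (61.5%). Within lane 8 the same medians were -0.005 and 0.00. CNOT3 had a GC content of 60.9% and EDC3 of 51.5%, and the part of base composition in their values was not tested.

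**Figure D3:**
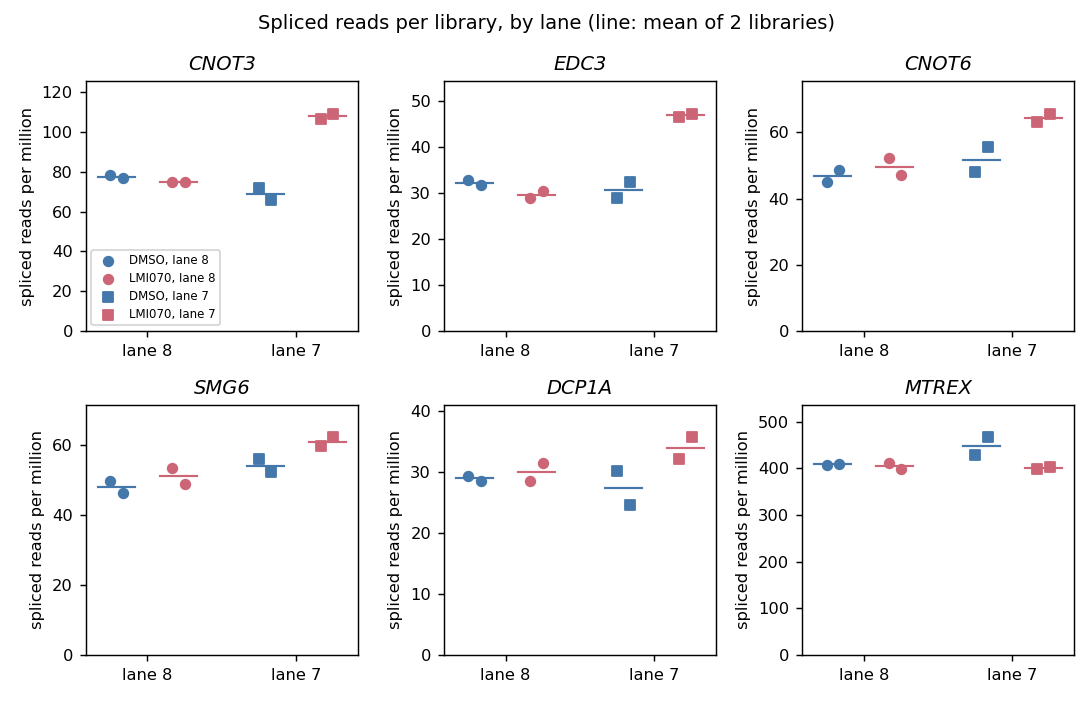
CPM of spliced reads (y axis, from 0) of the 6 decay genes CNOT3, EDC3, CNOT6, SMG6, DCP1A and MTREX in each library, with lane 8 and lane 7 apart (x axis); circles are lane 8, squares lane 7, and lines the mean of 2 libraries. The lane 7 LMI070 libraries of CNOT3 (106 and 109) and EDC3 (46.5 and 47.3) stand above all others, and the lane 8 groups lie close together.

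Splicing within the decay genes was examined next, since LMI070 acts on splice sites. A cassette exon was one that reads could either include, over 2 junctions, or skip, over 1. Inclusion is the percentage of reads that include it. No exon of a decay gene was called: 167 pairs of an exon and a skipping junction were tested in 36 genes, all but SMG8. Of these 0 reached an adjusted p under 0.05 in edgeR or in DESeq2. The pairs held 147 distinct exons, so some share reads and are not independent. In the counts of tested exons here, each pair counts as 1 exon, also over all genes. Over all genes 0.34% of 34985 exons passed, and 0.16% passed with a change of at least 10 percentage points. At an unadjusted p under 0.05 edgeR gave 5 of the 167, or 2.99%, beside 5.08% of all exons. Groups did not overlap for 2, or 1.2%, beside 3.57% of all exons. The median absolute change was 0.641 points, beside 0.783 over all exons, and 160 of the 167 differed by less than 5 points.

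**Figure D4:**
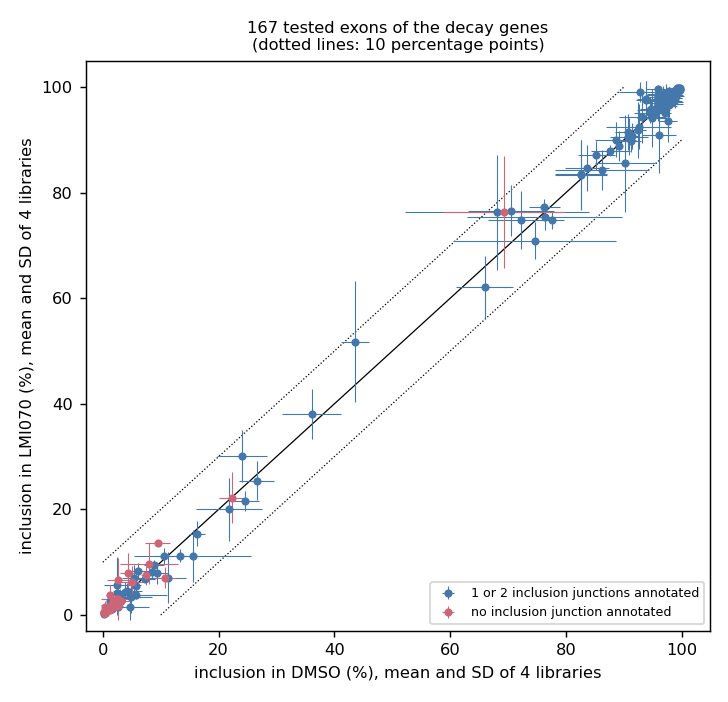
Inclusion in percent in LMI070 (y axis) against DMSO (x axis), as mean and SD of 4 libraries. Points are the 167 tested pairs of an exon and a skipping junction in the decay genes. Colours separate exons with and without an annotated inclusion junction, and dotted lines mark 10 points. All means lie between the dotted lines, and the exons of intermediate inclusion have the widest bars.

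The sequences of 6 exons are shown so that the splice site under each value can be read. They are 5′ to 3′ in lower case, with the last 3 bases of the exon, the part next to the 5′ splice site, in capitals. They come from the transcripts of GENCODE 29 on GRCh38, and each lies wholly within coding sequence. The first is the exon with the smallest p in MAGOH, the next pair are exons of equal length in UPF3A and UPF3B, and the fourth is the shortest tested exon of UPF3B. The PATL1 exon had the largest change of the 6, and the PAN2 exon ends in GA, the ending that LMI070 is known to favour.
MAGOH, chr1:53233542-53233652, - strand: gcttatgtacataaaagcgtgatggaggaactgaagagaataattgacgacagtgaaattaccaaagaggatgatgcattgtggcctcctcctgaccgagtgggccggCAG
UPF3A, chr13:114286302-114286400, + strand: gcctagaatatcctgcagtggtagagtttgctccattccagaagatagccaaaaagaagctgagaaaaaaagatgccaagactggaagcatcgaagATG
UPF3B, chrX:119845198-119845296, - strand: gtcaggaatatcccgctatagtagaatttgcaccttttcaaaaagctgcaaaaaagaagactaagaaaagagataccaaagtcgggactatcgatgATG
UPF3B, chrX:119840646-119840684, - strand: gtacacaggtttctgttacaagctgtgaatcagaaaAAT
PATL1, chr11:59655956-59656045, - strand: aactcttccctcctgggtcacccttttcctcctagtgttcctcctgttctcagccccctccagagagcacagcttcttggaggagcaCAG
PAN2, chr12:56318237-56318434, - strand: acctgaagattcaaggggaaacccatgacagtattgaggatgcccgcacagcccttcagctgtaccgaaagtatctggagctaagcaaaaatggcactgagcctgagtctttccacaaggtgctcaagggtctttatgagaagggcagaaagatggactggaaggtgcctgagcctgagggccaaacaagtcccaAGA

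The MAGOH exon, 111 nt and ending in CAG, was included at 75.2, 79.0, 79.7 and 77.1% in DMSO and at 76.5, 73.9, 75.7 and 72.9% in LMI070. The groups overlapped, and the difference of -2.98 points did not pass (edgeR unadjusted p = 0.0669). It was one of the best covered exons with intermediate inclusion, with 1334 reads over one inclusion junction in DMSO. Its length is a multiple of 3, so skipping it keeps the reading frame.

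The paralogous exons of UPF3A and UPF3B are both 99 nt long, end in ATG, and are identical at 67 of 99 positions, or 67.7%. They differed in use. The UPF3A exon was included at 70.8, 60.9, 69.6 and 62.8% in DMSO and at 53.6, 65.5, 63.6 and 66.1% in LMI070, with LMI070 13 the lowest library. The UPF3B exon was included at 97.8 ± 2.54% and 96.8 ± 2.44% (SD, n = 4 each). Neither differed between the groups beyond the spread. The 39-nt exon of UPF3B was included at 24.5 ± 2.53% and 21.6 ± 1.89%.

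The PATL1 exon was included at 72.3, 79.7, 62.2 and 67.7% in DMSO and at 80.2, 81.4, 73.2 and 71.9% in LMI070. The groups overlapped, and the difference of 6.19 points was 11.1 points within lane 7 and 1.26 points within lane 8. The PAN2 exon ending in AGA was at 90.7 ± 2.22% and 91.5 ± 3.44%, which did not differ beyond the spread. Of the 131 exons of decay genes with a known sequence 5 (3.82%) ended in GA and 2 (1.53%) in AGA, beside 1.98% and 0.918% of 27446 exons over all genes. The second exon ending in AGA, in CNOT7, was included at 1.5 ± 0.306% and 1.51 ± 0.359%.

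The 8 exons with the smallest p were described in every library. The first lay in CASC3 and is taken up with the junctions. PAN2 had a 343-nt exon at 94.4, 98.3, 97.5 and 93.9% in DMSO and at 100, 100, 98.2 and 100% in LMI070. The groups overlapped by a narrow margin, and the skipping junction had 9 reads in DMSO and 1 in LMI070 (edgeR unadjusted p = 0.00629, adjusted p = 0.624). A 189-nt form of the same exon, whose own inner junction had 1 read in each group, stood at 90.3, 96.2, 96.0 and 88.9% in DMSO and 100, 100, 96.4 and 100% in LMI070. These 2 forms share their skipping reads and so are not independent.

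CNOT6 had 2 of the 8. Its 203-nt exon stood at 98.8, 100, 96.3 and 96.6% in DMSO and 100, 99.1, 99.0 and 99.1% in LMI070, with 9 and 3 skipping reads. Its 86-nt exon stood at 97.3, 97, 95.3 and 96.6% in DMSO and 98.2, 96.6, 100 and 99.4% in LMI070. Both pairs of groups overlapped. A 120-nt exon of CNOT1 stood at 99.5, 99.4, 99.6 and 99.3% in DMSO and 100, 100, 99.4 and 99.8% in LMI070. A 90-nt exon of EXOSC2 was tested against 2 skipping junctions. Against the well covered one, with 342 reads, its inclusion was 89.2 ± 0.583% in DMSO and 88.9 ± 2.85% in LMI070 (edgeR unadjusted p = 0.899). The one among the 8 was the longer skip, with 26 and 14 reads, and its weaker inclusion junction had only 7 reads. Against that skip the exon stood at 93.4, 98.3, 95.0 and 97.1% in DMSO and 97.4, 97.8, 97.7 and 100% in LMI070.

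PAN3 had an unannotated 118-nt exon (chr13:28239579-28239696, + strand) that was included at 9.20, 11.9, 10 and 6.73% in DMSO. In LMI070 it was included at 13.9, 13.2, 14.3 and 13%. Every LMI070 library was above every DMSO library, by 4.16 points between the means, and the change was 5.12 points within lane 7 and 3.19 within lane 8. It did not pass (edgeR unadjusted p = 0.0536, adjusted p = 0.993).

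Exons of intermediate inclusion were then counted. There were 61 exons in 28 genes with inclusion between 3 and 97% in either group whose weaker inclusion junction reached 20% of the stronger one. Their changes ran from -3.83 to 8.16 points, and 58 were under 5 points. Groups did not overlap for 1 of the 61, the 118-nt PAN3 exon above, beside 3.57% of all exons. The largest, 8.16 points, was a 58-nt exon of SMG1, at 43.8, 40.2, 46.2 and 44.3% in DMSO and 41.1, 46.2, 67.5 and 52.3% in LMI070. LMI070 15 was far above the rest, and the exon did not pass (edgeR unadjusted p = 0.161). An exon of 162 nt in PAN3 stood at 36.1 ± 5.10% and 38.1 ± 4.79%, one of 152 nt in EXOSC3 at 76.3 ± 2.74% and 77.3 ± 1.58%, and one of 89 nt in EDC3 at 26.6 ± 3.04% and 25.4 ± 3.70%. A 130-nt unannotated exon of DCP2 was present at 7.48 ± 0.939% in DMSO and 7.54 ± 1.81% in LMI070.

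Single junctions gave the only call on splicing. The use of a junction is its percentage among all reads that share its donor or acceptor. In the decay genes 654 junctions were tested and 1 reached an adjusted p under 0.05, or 0.153%. That is the same share as the 0.153% of 129495 junctions over all genes. None reached it with 10 points, beside 0.0687% of all. At an unadjusted p under 0.05 there were 28, or 4.28%, beside 3.79% of all, and groups did not overlap for 10, or 1.53%, beside 2.45%.

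The called junction is an annotated intron of CASC3 (chr17:40141608-40161752, + strand). It was used at 97.1, 97.8, 96.6 and 98.2% in DMSO and at 90.8, 88.2, 93.5 and 97.5% in LMI070. LMI070 13, 14 and 15 lay below every DMSO library, while LMI070 16 lay within the DMSO range. The mean fell by 4.94 points, from 97.4 ± 0.72% to 92.5 ± 4.01% (SD, n = 4 each; edgeR adjusted p = 0.0488). The competing junctions had 18 reads in DMSO and 67 in LMI070.

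Nearly all of the competing reads entered or left a 47-nt exon inside the intron, chr17:40142054-40142100, whose 2 junctions are absent from GENCODE 29. Reads into it numbered 2, 3, 3 and 2 in DMSO and 15, 12, 7 and 2 in LMI070. Reads out of it numbered 3, 1, 2 and 1 in DMSO and 12, 9, 5 and 2 in LMI070. Reads that skip it numbered 165, 182, 173 and 166 in DMSO and 265, 179, 174 and 158 in LMI070. The exon was thus included at 1.49, 1.09, 1.42 and 0.896% in DMSO and at 4.85, 5.54, 3.33 and 1.25% in LMI070.

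With a change of 2.52 points it was the exon with the smallest p of the set, and it did not pass (edgeR unadjusted p = 0.00405, adjusted p = 0.511). Neither inclusion junction passed by itself (edgeR adjusted p = 0.913 and 0.930). Its sequence was not analysed here. A length of 47 nt is not a multiple of 3.

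The call on the intron was sensitive to the setting. It was lost with DESeq2 (adjusted p = 1.00), without the filter on low counts (edgeR adjusted p = 0.864), within lane 7 (-3.29 points, edgeR adjusted p = 0.941) and within lane 8 (-6.59 points, edgeR adjusted p = 0.646). It was also lost without any 1 of the 4 DMSO libraries 9, 10, 11 and 12 (edgeR adjusted p = 0.260, 0.641, 0.0607 and 0.319) or LMI070 13 or 14 (0.962 and 0.974). It was called without LMI070 15 (edgeR adjusted p = 0.0346) and without LMI070 16 (0.00664). Over every setting run the change lay between -6.62 and -3.29 points.

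**Figure D5:**
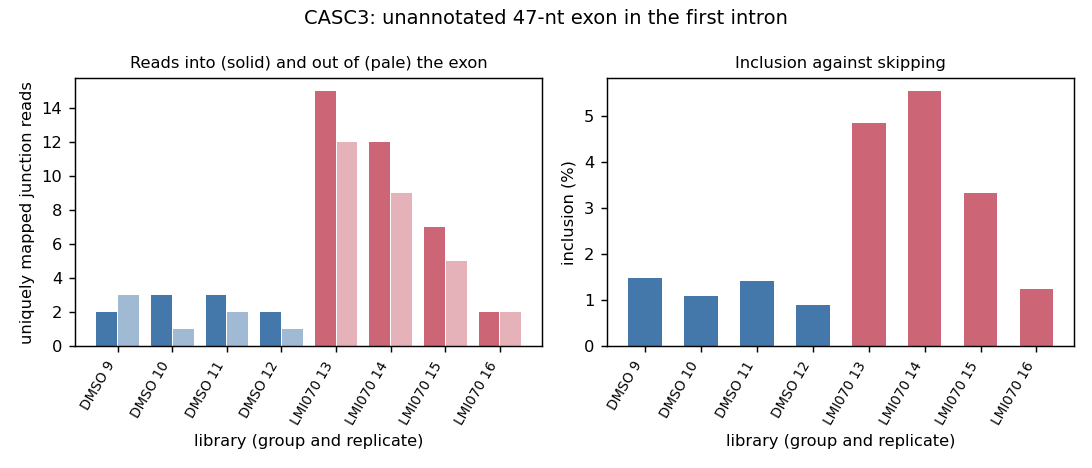
Uniquely mapped reads into and out of the unannotated 47-nt exon of CASC3 (left, y axis in reads) and its inclusion in percent (right) in each of the 8 libraries (x axis); bars start at 0, DMSO in blue and LMI070 in red. LMI070 13, 14 and 15 show 7 to 15 reads into the exon, and LMI070 16 shows 2, like the DMSO libraries.

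Other junctions with the smallest p did not pass (edgeR adjusted p = 0.823 to 0.930). A junction of UPF3B (chrX:119841259-119841734) was used at 100, 97.6, 96.3 and 95.8% in DMSO and at 100% in all 4 LMI070 libraries. A junction of CNOT8 (chr5:154872652-154875289) was used at 100% in all 4 DMSO libraries and at 98.9, 99.4, 98.5 and 98.6% in LMI070, with 0 and 7 competing reads. The 0 competing reads in DMSO, beside 630 of the junction, allow a share of up to 0.474%, for counting error only. In EXOSC10 the junction chr1:11068707-11069558 was used at 100, 100, 99.2 and 99.0% in DMSO and at 100% in each LMI070 library. The groups overlapped, with 6 competing reads in DMSO and 0 in LMI070. The difference was 0.908 points within lane 7 and 0.0 within lane 8. The junction that leads into the 343-nt exon of PAN2 was used at 96.0 ± 1.80% and 99.5 ± 0.926%.

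Near its 3′ end CNOT3 had competing acceptors. The main junction (chr19:54153841-54155308) was used at 98.7, 95.9, 93.4 and 97.3% in DMSO and at 89.8, 93.1, 93.2 and 83.7% in LMI070. The groups did not overlap, and the difference was -8.61 points within lane 7 and -4.16 within lane 8 (edgeR unadjusted p = 0.00905, adjusted p = 0.930). The nearer acceptor at chr19:54153841-54155257 was used at 1.28, 3.06, 1.32 and 1.37% in DMSO and at 7.39, 3.45, 3.39 and 9.78% in LMI070. LMI070 13 and 16, the libraries with the high level of CNOT3, were also those with the largest share of this acceptor.

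Junctions outside the annotation were then counted. In the decay genes there were 1264 with 6568 reads in all: 802 had 1 end at an annotated splice site, 295 had both and 167 had neither, and 639 had a single read. They took a share of 0.643, 0.672, 0.652 and 0.650% of the genes' junction reads in DMSO, and in LMI070 a share of 0.641, 0.678, 0.671 and 0.643%. The groups overlapped. Over all junctions the share was 0.892 ± 0.00291% in DMSO and 0.919 ± 0.0146% in LMI070. There the groups did not overlap, with 0.888 to 0.895% in DMSO and 0.905 to 0.935% in LMI070.

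The share ranged widely between genes. UPF3A had the highest, at 4.88 ± 1.22% in DMSO and 4.45 ± 0.718% in LMI070, followed by PAN3 at 3.99 ± 0.648% and 3.80 ± 0.283% and PATL1 at 3.58 ± 0.513% and 3.07 ± 0.538%. MAGOH had the lowest in DMSO, 0.0361 ± 0.0723%. CASC3 stood at 1.18, 1.66, 1.32 and 1.49% in DMSO and 1.49, 2.93, 1.95 and 1.19% in LMI070. Groups did not overlap for 1 of the 37, beside 2.9% of 13170 genes with unannotated reads. It was DIS3L, at 1.06, 1.04, 1.06 and 1.11% in DMSO and 1.2, 1.33, 1.32 and 1.13% in LMI070.

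The most read unannotated junctions were present in both groups. The 2 junctions of the 130-nt DCP2 exon had 224 and 222 reads, the first with 27, 28, 24 and 26 in DMSO and 49, 29, 21 and 20 in LMI070. They were followed by junctions of CASC3 (134 reads), SMG6 (130), SMG5 (122), PATL1 (122) and PAN3 (111), and by those of the 118-nt PAN3 exon (97 and 94). Only 1 unannotated junction of the decay genes had reads in every LMI070 library and in no DMSO library, which is 0.0791% of their 1264, beside 0.114% of 358699 over all genes. It lay in CNOT8 (chr5:154872652-154878913) and had 1, 1, 1 and 2 reads. The reverse held for 3 junctions, in CNOT1, CASC3 and CNOT6, with 5, 6 and 4 reads, which is 0.237% beside 0.0541%.

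Genes of the same pathways outside the set were read from a list of 60, of which 58 were tested. Of these 0 passed as higher and 1 as lower, and 9 had an unadjusted p under 0.05, or 15.5%, beside 9.84% of all genes. The median log2 fold change was 0.017. The gene that passed was XRN2, the nuclear exonuclease that degrades RNA from its 5′ end. It stood at 589, 592, 586 and 618 CPM in DMSO and at 379, 399, 392 and 384 CPM in LMI070, so that all 4 treated libraries lay below all 4 controls (log2 fold change -0.618, SE 0.036, edgeR adjusted p = 4.2e-10). XRN1, its cytoplasmic counterpart that follows decapping, stood at 200 ± 10.4 and 205 ± 6.69 CPM and did not pass.

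RNAs that are known to accumulate when nonsense-mediated decay is slowed were examined as a further list. Of 20 such RNAs 18 were tested and 0 passed in edgeR. At an unadjusted p under 0.05 there were 3, or 16.7%, beside 9.84% of all genes. They were SNHG17 with a log2 fold change of 0.391 and GAS5 and SNHG6 with -0.121 and -0.154. The median log2 fold change of the 18 was -0.073, beside 0.004 over all genes, and 3 of 18 estimates were above 0, beside 51.4% of all genes. These values differed between the lanes. Within lane 7 the median was -0.155 with 5 of 18 above 0, and within lane 8 it was 0.017 with 12 of 18 above 0. Without LMI070 16 the median was -0.041 with 6 above 0.

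GAS5, a noncoding host of small nucleolar RNAs, stood at 195, 196, 208 and 221 CPM in DMSO and at 178, 209, 192 and 175 CPM in LMI070. Its low libraries were LMI070 13 and 16, and its log2 fold change was -0.275 within lane 7 (edgeR adjusted p = 0.0108) and 0.038 within lane 8 (edgeR adjusted p = 0.928). SNHG17, another such host, stood at 10.2, 11.8, 11.2 and 11.3 CPM in DMSO and at 16.4, 11, 12.4 and 19.8 CPM in LMI070, with a log2 fold change of 0.679 within lane 7 (edgeR adjusted p = 0.0018) and 0.071 within lane 8 (edgeR adjusted p = 0.973). The interaction with lane passed for 2 of the 18, SNHG5 and GAS5, beside 3.02% of all genes (0.314 for GAS5, edgeR adjusted p = 0.013). It did not pass for SNHG17 (-0.60, edgeR adjusted p = 0.0632). ATF4, a transcription factor of the stress response, stood at 86.3 ± 4.82 and 86.2 ± 2.55 CPM.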

How the data were processed

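Total RNA was depleted of ribosomal RNA and made into stranded libraries, per the labels' protocols. Per the submitters' processing notes, STAR 2.6.0c was the aligner and GRCh38 the genome. The deposited tables hold, for each of the 8 libraries, raw counts of the reads that cross each splice junction. The parameters of the alignment are not given in the sources used here. Reads within exons or introns are not used here. The 37 genes and all lists were chosen with earlier results of these data known.

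Junctions were matched to introns of GENCODE 29, which held 242867 of 654181 junctions and 99.09% of uniquely mapped reads, and the annotation mark in the tables gave the same answer for 99.76%. Spliced reads per gene were uniquely mapped counts summed over annotated junctions of a single gene (95.85% of annotated reads). Genes were filtered by edgeR's expression filter, scaled by TMM (factors 0.998 to 1.004) and tested with edgeR 4.0.16 (quasi-likelihood F test, lane and treatment, R 4.3.3). Exons of 3 to 500 nt needed 10 inclusion and 10 skipping reads in all and 10 reads in each library. Junctions needed 20 reads in all, 10 reads of their sites in each library and a competitor. Both were tested as paired counts with coefficients for library, lane and treatment. Benjamini-Hochberg adjustment covered all features of a test, and a feature was called at an adjusted p under 0.05. Standard errors were derived from the F statistic. The fits were tested on simulated data. They recovered 97% of 200 genes changed by a ratio of 1.5. For changes of 20 points they recovered 74.5% of 200 exons and 80.5% of 200 junctions. Of the calls on genes, exons and junctions 5.37%, 0.667% and 1.83% were false. The simulation held no lane difference, and only features above a set number of reads were changed. Its spread between libraries was set by hand and not taken from these data. The changed exons and junctions started at intermediate percentages and all rose, so these rates do not cover those at either extreme.

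Named were all 37 genes by role and the most read unannotated junctions. Values in every library were given for the 8 smallest p of genes, exons and junctions and for the paralogue pairs. Further exons, junctions and genes were named after their values were seen. Alternatives were DESeq2 1.42.0, another scaling, no filter, no lane term, each lane, multiply mapped reads, an overhang of 20 nt and leaving out each library. Those on the interaction of treatment and lane were chosen after seeing the data. The number of reads sets the precision of a percentage.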

Additional observations from a re-analysis of the deposited data

Results flagged for a closer look

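Among 128 groups of 4 libraries examined (levels of all 37 genes and of XRN2, GAS5 and SNHG17, and percentages of the exons, junctions and unannotated shares given for every library), 7 held a library that stood apart from the other 3 by more than Dixon's 95% critical value. Chance alone flags about 1 in 20 such groups. In PAN2, LMI070 15 had 98.2% inclusion of the 343-nt exon while the other LMI070 libraries had 100%, and the 189-nt form and the junction into the exon, which share reads with it, stood at 96.4% and 98.1% in that library. In the 203-nt exon of CNOT6, LMI070 13 stood at 100%, above the other LMI070 libraries, and in the 90-nt exon of EXOSC2, against its longer and rarer skip, LMI070 16 stood at 100%. A junction of EDC4 (chr16:67880217-67880556) was used at 99.2% in LMI070 14 and at 100% in the other LMI070 libraries. The nearer acceptor of CNOT3 was used at 3.06% in DMSO 10, above the other DMSO libraries.

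The difference between LMI070 and DMSO in 2 decay genes was not the same in both lanes by the interaction test of edgeR. For CNOT3 the log2 fold change in lane 8 minus that in lane 7 was -0.698, and for EDC3 it was -0.739. In both genes LMI070 13 and 16, of lane 7, lay above the other 6 libraries. For GAS5, a target RNA outside the set, the same difference was 0.314, with LMI070 13 and 16 the lowest libraries. With only 2 LMI070 libraries in a lane, the lane and these libraries cannot be told apart.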

How the results depend on the processing

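No paired analysis was possible because the groups share no replicate number. Called counts over all genes moved with the setting, from 18 genes to 36 with DESeq2, 215 without the filter, 577 within lane 7 and 50 within lane 8, and to 14 to 23 without a library. Exons called with 10 points went from 56 to 33 within lane 7, and junctions from 89 to 54 within lane 7, 51 within lane 8 and 55 with DESeq2. Decay genes called went from 0 to 1 without the filter (CNOT6, 0.204, adjusted p = 0.0432) and 3 within lane 7 (CNOT3, EDC3 and CNOT6). Their called junctions went from 1 to 0 within lane 7, within lane 8, without the filter and with DESeq2, and ranged from 0 to 1 without a library. Decay genes with an interaction of treatment and lane ranged from 2 to 11 without a library (11 without DMSO 11), and all genes from 171 to 1635, beside 407 with all libraries.

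Within lane 8 the sign turned for 17 of the 37 genes, 14 of them with an absolute estimate under 0.1 over both lanes. Among the genes given for every library these were CNOT3 (-0.049), EDC3 (-0.122), UPF3B (-0.031), DIS3 (0.014), MAGOH (0.093), CNOT7 (0.024), CNOT8 (0.071) and DIS3L (0.009), on the log2 scale, and the sign also turned for the 203-nt exon of CNOT6 (-0.329 points). Without a library MAGOH ranged from -0.037 to 0.070, CNOT7 from -0.066 to 0.013 and CNOT8 from -0.078 to 0.004 (highest without DMSO 12), and DCP1B from -0.006 (without LMI070 14) to 0.112. None of these 4 had passed the test. The cause was not tested. Unannotated junctions with an annotated end made up 0.615% of the reads of the decay genes in DMSO and 0.619% in LMI070. Single libraries held as few as 293 reads of a decay gene, and exons near 0 or 100% rest on a few reads.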
